A study of Mus musculus with 8 samples.

Results

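Hox genes encode homeodomain transcription factors that were measured here in primary mouse embryonic fibroblasts kept in low or in atmospheric oxygen. The members were the rows of the deposited table, each a probe set, whose platform annotation named a single gene with a Hoxa, Hoxb, Hoxc or Hoxd symbol. There were 257 such rows among 641130, and they gave values for 37 Hox genes among 21656 genes tested, with 2 to 16 rows per gene (median 7). Hoxd4 had no row of its own, because its 13 rows also named Hoxd3.

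The cells labelled MEF_hypoxic spent 24 h in 1% O2, and those labelled MEF_normoxic spent the same 24 h in atmospheric oxygen. Both were unmodified embryonic fibroblasts grown on 100 mm dishes at 37 °C with 5% CO2. The labels gave 4 arrays to each group, and 50 ng of RNA per sample was amplified, labelled and hybridised to Mouse Exon 1.0 ST arrays. Neither the labels nor the methods name the strain, the embryonic age or the part of the embryo dissected, so the body region from which the cells came is not known here. Such cultures may hold fibroblasts of several regions, and in bulk RNA fewer cells with a transcript and less of it per cell cannot be told apart.

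Hox genes lie in 4 clusters, Hoxa on chromosome 6, Hoxb on chromosome 11, Hoxc on chromosome 15 and Hoxd on chromosome 2. Within a cluster the genes are numbered from the end that is switched on first and furthest towards the head to the end that is switched on last and furthest towards the tail, and genes of the same number in different clusters are paralogs. Adult and embryonic fibroblasts keep much of the Hox pattern of the place they came from, so that the set of active Hox genes is used as a record of position along the body and along the limbs. Chromatin holds this record: Polycomb complexes keep silent Hox genes off and Trithorax complexes keep active ones on.

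The identity of the cells and their response to low oxygen were checked first. All 11 fibroblast markers, Col1a1, Vim and Thy1 among them, lay above the receptor-gene level, which is the 95th percentile of the mean log2 intensity of 1265 odorant, vomeronasal and trace amine receptor genes in the same group (2.67 in hypoxia and 2.73 in normoxia). Of these markers 1 fell in hypoxia, Pdgfrb, a growth factor receptor of mesenchyme (5.85 in hypoxia and 6.50 in normoxia, log2 fold change -0.64, adjusted p = 0.0381), a call made in 3 of 16 alternative settings and lost on leaving out any array other than hypoxia replicate 1. In each group 0 of 4 endothelial, 1 of 4 blood, 2 of 6 epithelial and 5 of 8 neural markers lay above that level. The markers Pecam1, Ptprc, Epcam and Sox2 lay below it. Since most neural markers lay above it, Sox2 alone does not show that neural transcripts were absent. The mean level of the neural list ran from 3.23 to 3.40 over the hypoxia arrays and from 3.25 to 3.59 over the normoxia arrays, and its part in the Hox values was not tested. All 5 hypoxia controls rose: the log2 fold change was 3.40 for Bnip3, 2.26 for Egln3, 2.08 for Pdk1, 1.46 for Slc2a1 and 0.87 for Vegfa. Over all genes 217 rose and 259 fell in hypoxia (limma, Benjamini-Hochberg adjusted p under 0.05). Single rows correlated less between hypoxia arrays (r of 0.859 to 0.878) than between normoxia arrays (0.923 to 0.944). A hypoxia array and a normoxia array correlated at 0.876 to 0.905. The median SD of a Hox gene was 0.289 log2 units in hypoxia and 0.184 in normoxia. Over all genes it was 0.198 in hypoxia and 0.175 in normoxia. A Hox gene averaged a median of 7 rows, against 11 over all genes, and the part of this difference in the SD was not tested.

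Most Hox genes lay above the receptor-gene level in both groups, from the 3′ end of the clusters into the 5′ genes. In hypoxia 31 and in normoxia 29 of the 37 Hox genes lay above the receptor-gene level, 28 of them in both groups, while 51.1% of all genes did so in hypoxia and 51.4% in normoxia. The count depended on how the level was set. With only rows at or above the table median, which drops the dim receptor rows, 3 Hox genes in hypoxia and 2 in normoxia lay above it. Among single rows, 52.5% of Hox rows in hypoxia and 53.7% in normoxia lay above the 95th percentile of single receptor rows. Of all rows that name a gene, 44.3% in hypoxia and 46.2% in normoxia did so. Above the stricter 99th percentile of receptor genes lay 13 Hox genes in each group, and 12 of these were shared: Hoxa4, Hoxa5, Hoxa7, Hoxb3, Hoxb5, Hoxb6, Hoxb8, Hoxb9, Hoxc6, Hoxc8, Hoxd10 and Hoxd13. Hoxc4 passed that limit in hypoxia alone and Hoxa11 in normoxia alone, by small margins on both occasions. Since probe sets differ in how well they bind, the distance of a gene from the receptor-gene level says how clearly it was seen and does not rank Hox genes by transcript number.

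**Figure D1:**
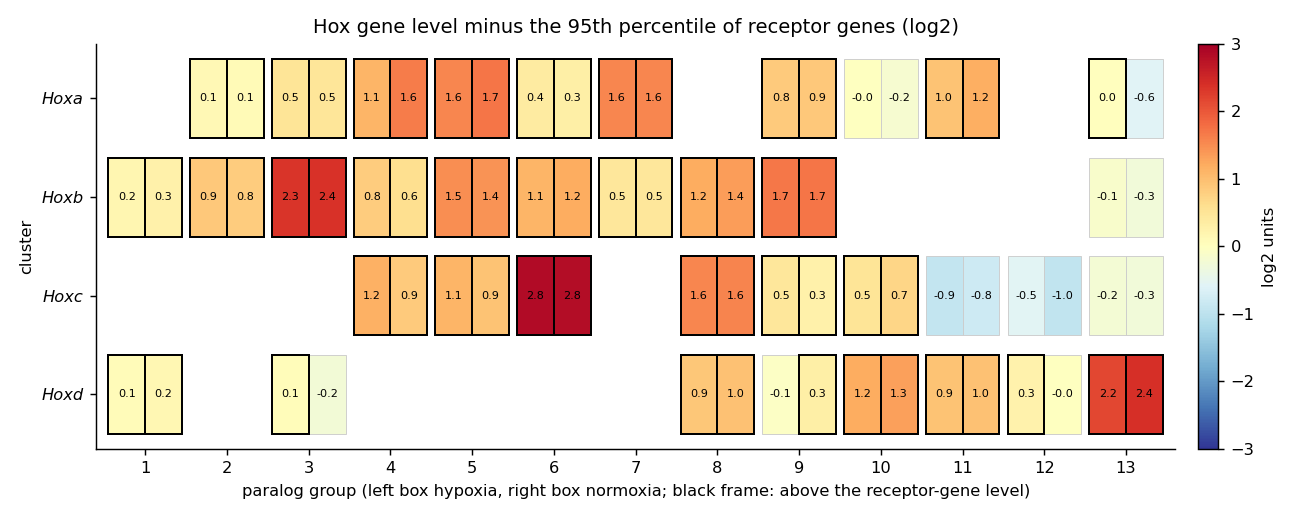
Level of each Hox gene minus the 95th percentile of receptor genes, in log2 units, by cluster (rows) and paralog group (columns), with hypoxia in the left box and normoxia in the right box of each pair and a black frame where the gene lay above that level. Genes of paralog groups 5 to 8 were all framed in both groups, and Hoxc11, Hoxc12 and Hoxc13 were framed in neither.

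The genes below the level in both groups lay at the 5′ end of the clusters. Of the 10 genes in paralog groups 1 to 4, 10 lay above the receptor-gene level in hypoxia and 9 in normoxia. All 11 genes of groups 5 to 8 did so in both. Of the 16 genes in groups 9 to 13, 10 in hypoxia and 9 in normoxia passed. The 5 genes below the level in both groups were Hoxa10, Hoxb13, Hoxc11, Hoxc12 and Hoxc13, all members of groups 10 to 13. Below the 99th percentile in both groups also lay Hoxa2, Hoxa3, Hoxb1, Hoxb2, Hoxb4, Hoxd1 and Hoxd3, of groups 1 to 4. Hoxa13, Hoxd3 and Hoxd12 passed in hypoxia alone and Hoxd9 in normoxia alone, and of these 4 genes the one furthest from the level was Hoxa13 in normoxia (-0.57 log2 units). Hoxa13 rested on 2 rows and Hoxd12 on 3.

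In the Hoxa and Hoxd clusters genes further towards the 5′ end lay above the level in both groups than in Hoxb and Hoxc. Hoxa11 and Hoxd13, genes known for limb patterning, lay clearly above the receptor-gene level, with Hoxd10 and Hoxd11 beside them. Hoxa11, needed for the forearm and for the uterus, had 4.14, 3.64, 3.51 and 3.22 on the hypoxia arrays, against 3.95, 3.90, 3.86 and 3.92 on the normoxia arrays. The groups overlapped, since hypoxia replicate 1 stood above all normoxia arrays and the other hypoxia arrays below them. Hoxb13, a gene of the tail bud and prostate, and Hoxc11 to Hoxc13, genes of the hindmost trunk and of hair, stayed below the receptor-gene level. In the Hoxb cluster the 9 genes from Hoxb1 to Hoxb9 all passed, and in the Hoxc cluster the 6 genes from Hoxc4 to Hoxc10 did. Few rows carried the signal of Hoxc13 and Hoxd1: 1 of 8 rows of Hoxc13 and 2 of 8 rows of Hoxd1 lay above the row limit, set at the same percentile of single receptor rows, in each group. The brightest row of Hoxc13 reached 5.54 in hypoxia and 5.95 in normoxia, and that of Hoxd1 7.16 in hypoxia and 7.64 in normoxia.

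Hoxd13, which shapes digits and the genital tubercle and is the last gene of its cluster, had values of 5.34, 4.29, 4.98 and 4.75 on the hypoxia arrays, against 4.93, 5.35, 5.15 and 5.08 on the normoxia arrays. All 8 arrays lay above the receptor-gene level and the groups overlapped, hypoxia replicate 2 being the lowest. All 5 rows of Hoxd13 were above the row limit in both groups. Its log2 fold change was -0.29 (95% interval -0.73 to 0.16).

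Hoxb9, a thoracic gene that takes part in rib patterning, had 4.57, 4.46, 3.97 and 4.49 on the hypoxia arrays and 4.43, 4.66, 4.46 and 4.26 on the normoxia arrays. The groups overlapped almost fully, with hypoxia replicate 3 lowest. Hoxc6, a gene of the anterior thorax and forelimb level, lay 2.84 log2 units above the receptor-gene level in hypoxia and 2.83 in normoxia, and all 7 of its rows passed the row limit in both groups.

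**Figure D2:**
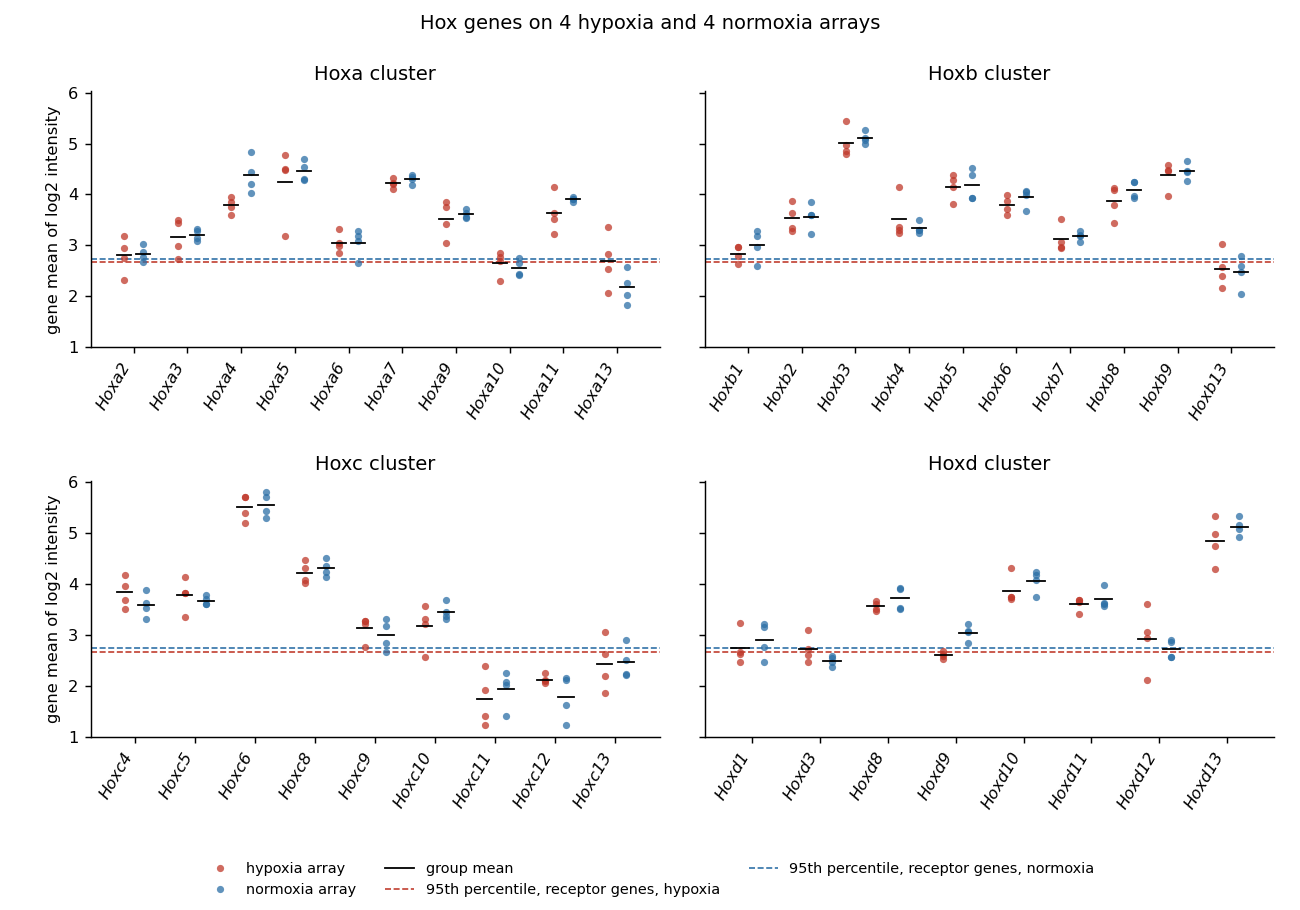
Gene mean of log2 intensity of the 37 Hox genes on each array, with hypoxia points left of normoxia points, black bars at group means and dashed lines at the 95th percentile of receptor genes in each group. The groups overlapped for every gene except Hoxa4 and Hoxd9, where the hypoxia arrays all lay below the normoxia arrays.

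Low oxygen for 24 h changed no Hox gene past the threshold. Of the 37 genes, 0 were called by limma, against 2.20% of all genes tested, 1.00% having been called higher and 1.20% lower. Before adjustment, at p under 0.05, there were 0 higher and 2 lower, Hoxd9 and Hoxa4, while 8.67% of all genes were higher and 13.5% lower at that level. The groups did not overlap for 0 Hox genes that were higher and for the same 2 that were lower, where the background was 5.48% of all genes higher and 9.58% lower. The lowest adjusted p was 0.066.

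The intervals describe the size of change of each gene mean given the spread between arrays, and do not cover the choice of gene summary. With the median over rows, Hoxc5 gave -0.52 and Hoxb1 0.27. Both lay outside their intervals in the main fit, -0.24 to 0.45 for Hoxc5 and -0.52 to 0.18 for Hoxb1. Hoxa10 (-0.12) and Hoxd10 (0.025) stayed inside theirs. For 36 of the 37 Hox genes the 95% interval of the log2 fold change lay within 1 log2 unit on either side of no change, the exception being Hoxa13, whose interval reached 1.09. For 23 genes it lay within 1.5-fold in either direction, and for 17 within 0.5 log2 units. Fold changes ran from -0.59 to 0.52 on the log2 scale, 27 negative and 10 positive, with a median of -0.08, while the median of all genes was -0.05 and 57.0% of all genes had a negative value. The sign tally depended on the scaling: quantile normalization gave 22 negative and 15 positive (median -0.014), and cyclic loess 16 negative and 21 positive (median 0.032).

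**Figure D3:**
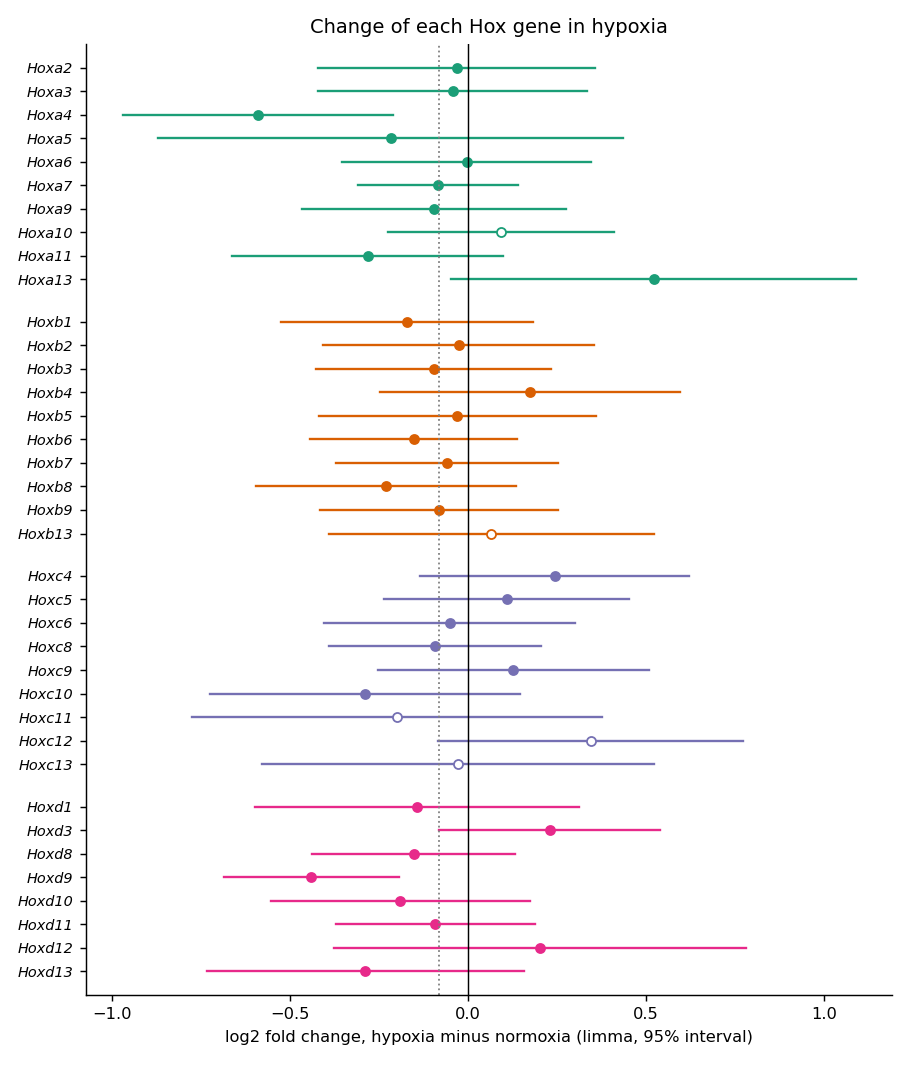
Log2 fold change of each Hox gene, hypoxia minus normoxia, with its 95% interval from limma, by cluster, where open circles mark the 5 genes below the receptor-gene level in both groups and the dotted line the median of the 37 genes. Only the intervals of Hoxa4 and Hoxd9 left out 0, and neither gene passed the adjusted threshold.

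Hoxd9, which acts with its paralogs in limb and lumbar patterning, had 2.63, 2.68, 2.59 and 2.53 on the hypoxia arrays, against 3.07, 3.21, 2.83 and 3.07 on the normoxia arrays. Every hypoxia array lay below every normoxia array. The log2 fold change was -0.44 ± 0.11 (SE; 0.737-fold, adjusted p = 0.066). The gene straddled the receptor-gene level, lying 0.06 log2 units under it in hypoxia (-0.06) and 0.31 above it in normoxia.

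The rows of Hoxd9 did not move as a block. Of its 12 rows, 10 were lower in hypoxia and 2 higher, and for 2 rows, both lower, the groups did not overlap. The brightest row had mean log2 intensities of 5.25 in hypoxia and 6.13 in normoxia, and the next brightest had 4.37 in hypoxia and 5.61 in normoxia. The third brightest went the other way, with 4.35 in hypoxia and 3.73 in normoxia. No row of Hoxd9 was called, the lowest adjusted p over all Hox rows being 0.284.

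Hoxa4, a gene of the neck level, had 3.94, 3.75, 3.85 and 3.60 on the hypoxia arrays, against 4.84, 4.02, 4.20 and 4.44 on the normoxia arrays. The groups did not overlap, with the closest arrays, hypoxia replicate 1 and normoxia replicate 2, near each other. The log2 fold change was -0.59 ± 0.17 (SE; 0.664-fold, adjusted p = 0.0908). Of the 7 rows of Hoxa4, 6 were lower and 1 higher in hypoxia, and for 1 row the groups did not overlap. That row averaged 2.72 in hypoxia and 4.64 in normoxia, the widest gap of any Hox row. By RefSeq annotation (GRCm38.p6) Hoxa4 overlaps Hoxa3, and rows assigned to either gene may report both. Hoxa3 itself, a gene of the pharyngeal arches, averaged 3.16 ± 0.36 in hypoxia and 3.21 ± 0.12 in normoxia.

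**Figure D4:**
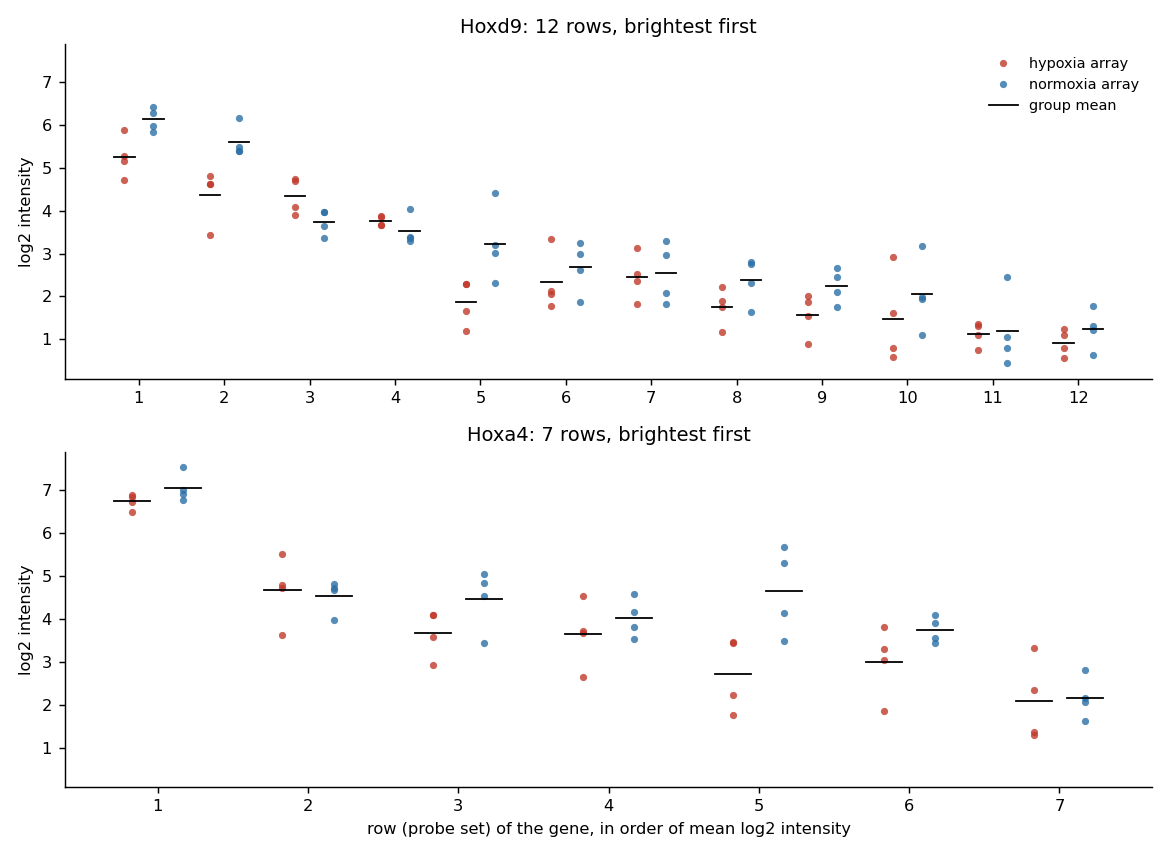
Log2 intensity of each row (probe set) of Hoxd9 and Hoxa4 on the 4 hypoxia arrays (left points) and the 4 normoxia arrays (right points), rows ordered by brightness, with black bars at group means. Of the Hoxd9 rows 10 of 12, and of the Hoxa4 rows 6 of 7, had a lower mean in hypoxia, while the brightest row of Hoxa4 averaged 6.74 in hypoxia and 7.06 in normoxia.

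Hoxa13, which patterns digits and the hindgut, had the highest fold change of the family, 0.52 on the log2 scale (95% interval -0.05 to 1.09, adjusted p = 0.262). Its hypoxia arrays gave 2.82, 2.05, 2.54 and 3.35 and its normoxia arrays 1.81, 2.57, 2.26 and 2.03. The groups overlapped, only 2 hypoxia arrays exceeded the receptor-gene level and no normoxia array did, and neither row passed the row limit in either group. Hoxa10, a gene of the lumbar spine and uterus, had a mean near the receptor-gene level, 2.65 ± 0.24 in hypoxia and 2.56 ± 0.16 in normoxia, although 3 of its 10 rows were above the row limit in each group.

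The remaining Hoxa genes showed small differences. Hoxa5, known for lung and cervical patterning, had 4.78, 3.19, 4.49 and 4.49 in hypoxia and 4.27, 4.70, 4.53 and 4.30 in normoxia. Hypoxia replicate 2 was far below the other 7 arrays, and the remaining hypoxia arrays lay within or just above the normoxia range. Hoxa7, a thoracic gene measured on 14 rows, was among the most evenly measured, with 4.22 ± 0.09 in hypoxia and 4.30 ± 0.09 in normoxia (SD). The log2 fold change was -0.03 for Hoxa2, which patterns the branchial arches, and -0.10 for Hoxa9, and Hoxa6 averaged 3.05 in both groups. Over the 10 Hoxa genes 8 fold changes were negative, the median was -0.06, and the cluster mean per array ran from 3.17 to 3.52 in hypoxia and from 3.41 to 3.49 in normoxia.

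In the Hoxb cluster the genes differed little between the groups, and all 10 adjusted p-values were 0.438 or more. The lowest fold change belonged to Hoxb8, a trunk gene also active in microglial progenitors, with 4.09, 3.79, 3.44 and 4.13 on the hypoxia arrays and 4.24, 4.24, 3.96 and 3.92 on the normoxia arrays. The groups overlapped, and the log2 fold change was -0.23 (95% interval -0.60 to 0.14). The highest belonged to Hoxb4, known for its role in blood stem cells, with 3.24, 3.29, 3.35 and 4.14 in hypoxia and 3.29, 3.30, 3.23 and 3.49 in normoxia. Hypoxia replicate 4 alone stood above the rest, and without that array the log2 fold change of Hoxb4 was -0.04. Among its 8 rows, the row with the widest gap averaged 3.39 in hypoxia and 1.85 in normoxia, while the brightest row averaged 7.26 in hypoxia and 7.37 in normoxia. Hoxb4 overlaps Hoxb3 in the same gene table. Hoxb3, active in the hindbrain and branchial arches, held the brightest Hox row, with 9.90 in hypoxia and 9.66 in normoxia. Hoxb1, Hoxb2, Hoxb5, Hoxb6, Hoxb7 and Hoxb9 had fold changes between -0.17 and -0.03, and Hoxb13 one of 0.07. The cluster mean per array was 3.56 to 3.76 in hypoxia and 3.69 to 3.76 in normoxia.

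The Hoxc cluster had 4 of 9 fold changes positive and a median of -0.03. Hoxc4 and Hoxc5, its first genes, and Hoxc9, a thoracic gene, were on the positive side, at 0.24, 0.11 and 0.13. Hoxc4 had 3.69, 3.50, 4.18 and 3.97 on the hypoxia arrays and 3.53, 3.89, 3.64 and 3.32 on the normoxia arrays, which overlapped, and 8 of its 9 rows were higher in hypoxia. Hoxc10, a gene of the lumbar region and hindlimb, had 3.21, 2.57, 3.58 and 3.31 in hypoxia and 3.37, 3.31, 3.69 and 3.44 in normoxia. The groups overlapped and hypoxia replicate 2 was again the lowest. Its log2 fold change was -0.29 (95% interval -0.73 to 0.15). Hoxc6 and Hoxc8, thoracic genes, had fold changes of -0.05 and -0.09. Hoxc11, Hoxc12 and Hoxc13, whose means lay below the receptor-gene level, gave -0.20, 0.35 and -0.03, and in each group 1 row of Hoxc11, 1 of Hoxc13 and 0 of Hoxc12 were above the row limit.

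In the Hoxd cluster 6 of 8 fold changes were negative, with a median of -0.15. Apart from Hoxd9 these were Hoxd1 (-0.14), Hoxd8 (-0.15), Hoxd10 (-0.19), Hoxd11 (-0.09) and Hoxd13. The positive ones were Hoxd12 (0.20) and Hoxd3, a gene of the first neck vertebrae. Hoxd3 had 2.61, 2.47, 3.09 and 2.71 on the hypoxia arrays and 2.59, 2.38, 2.46 and 2.54 on the normoxia arrays, which overlapped close to the receptor-gene level (log2 fold change 0.23, 95% interval -0.08 to 0.54). The 13 rows shared by Hoxd3 and Hoxd4 averaged 3.12 ± 0.30 in hypoxia and 3.10 ± 0.18 in normoxia (SD, n = 4 each). The cluster mean per array ran from 3.29 to 3.54 in hypoxia and from 3.33 to 3.56 in normoxia. Hoxd10 and Hoxd11 overlap in the gene table, so a row assigned to either gene may report both.

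By paralog group the medians of gene means were between -0.20 and 0.27 on the log2 scale, and with the median over rows as the gene value they reached -0.52 in group 5. The members of groups 1, 2, 6, 7, 8 and 11 all had negative values, and both members of group 12 had positive ones close to or under the receptor-gene level. In group 4 the paralogs differed in sign, with -0.59 for Hoxa4, 0.18 for Hoxb4 and 0.24 for Hoxc4. In group 9 the values were -0.44 for Hoxd9, -0.10 for Hoxa9, -0.08 for Hoxb9 and 0.13 for Hoxc9. In group 13 Hoxa13 and Hoxd13 had opposite signs, 0.52 and -0.29. None of these differences between paralogs was tested.

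At the level of single rows, 7 of the 257 Hox rows were lower in hypoxia without overlap between the groups and 3 were higher, where 4.74% and 3.15% of all rows that name 1 gene did so. Of the Hox rows 0 were called by limma over all rows, against 0.0416% of all rows. Taking single tests without adjustment, 13 Hox rows had p under 0.05 on the lower side and 6 on the higher side, where 7.37% and 4.67% of the rows naming 1 gene did. The non-overlapping rows were spread over genes: the lower ones belonged to Hoxd9, Hoxa4, Hoxa7, Hoxc6, Hoxc10 and Hoxd11, and the higher ones to Hoxb4, Hoxc4 and Hoxc5.

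Across the whole table the fold change of a gene went with its level. When all genes were split by mean level into 5 bins of equal size, the median log2 fold change was 0.21 in bin 1, the dimmest, and -0.18 and -0.16 in bins 4 and 5. The 15 Hox genes in bin 4 had a median of -0.10 and the 7 in bin 5 one of -0.09. The 13 Hox genes in bin 3 had a median within 0.01 of 0, where all genes of that bin had -0.09. In each of bins 3 to 5 the Hox median was nearer to 0 than that of all genes, and in bin 2 the 2 Hox genes had a median of 0.073, where all genes had 0.035. These differences were not tested.

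**Figure D5:**
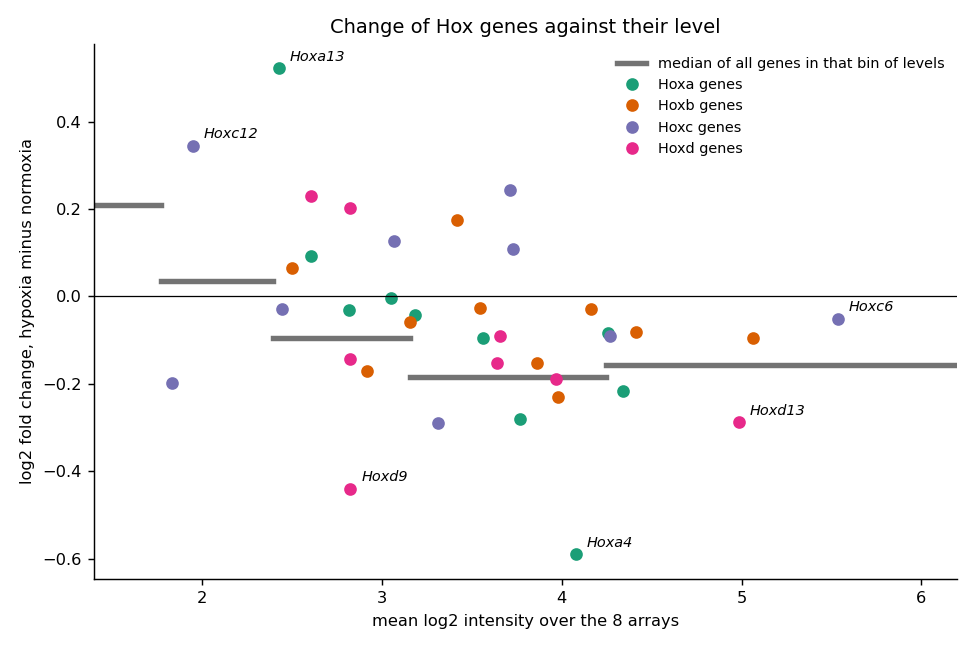
Log2 fold change, hypoxia minus normoxia, of the 37 Hox genes against their mean log2 intensity over the 8 arrays, coloured by cluster, with grey bars at the median of all genes in each of the 5 bins of levels. Hoxa13 (0.52) and Hoxc12 (0.35) stood highest at low levels, and Hoxa4 (-0.59) and Hoxd9 (-0.44) stood lowest.

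The sequences just before the start of 3 of these genes are given because Hoxd9 had the lowest adjusted p of the family, and Hoxd13 and Hoxa11 were the most 5′ members of their clusters above the receptor-gene level in both groups. Each holds the 250 bases before the RefSeq start on the gene's own strand in GRCm38.p6, and capitals mark ACGTG or GCGTG, the core letters that hypoxia-inducible factors bind, or TTTATG, letters bound by the caudal factors that act on Hox clusters, on either strand. Hoxd9 is at chr2:74697513-74697762 (+), Hoxd13 at chr2:74667975-74668224 (+) and Hoxa11 at chr6:52245811-52246060 (-).
Hoxd9: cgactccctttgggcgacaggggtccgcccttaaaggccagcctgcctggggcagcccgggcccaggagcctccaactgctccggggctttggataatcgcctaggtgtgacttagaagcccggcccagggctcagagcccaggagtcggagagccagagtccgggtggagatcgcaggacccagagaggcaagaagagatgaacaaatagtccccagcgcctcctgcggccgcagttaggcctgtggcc
Hoxd13: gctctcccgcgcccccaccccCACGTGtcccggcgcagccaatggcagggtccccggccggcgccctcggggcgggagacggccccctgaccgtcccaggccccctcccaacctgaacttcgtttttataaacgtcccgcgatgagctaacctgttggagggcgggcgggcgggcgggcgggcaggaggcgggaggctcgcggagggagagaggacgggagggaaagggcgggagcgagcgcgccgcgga
Hoxa11: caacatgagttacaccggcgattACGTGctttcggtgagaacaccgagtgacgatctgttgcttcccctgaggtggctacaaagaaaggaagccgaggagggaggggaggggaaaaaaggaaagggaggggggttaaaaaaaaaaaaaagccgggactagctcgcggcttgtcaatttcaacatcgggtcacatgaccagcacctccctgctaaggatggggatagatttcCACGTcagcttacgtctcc

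None of these letters was found in the Hoxd9 window, and each of the other 2 windows held ACGTG 2 times, counted on both strands, which in Hoxd13 is 1 run of letters that reads the same on either strand. Of the 24 windows given by RefSeq for 22 Hox genes (2 of them for Hoxd11 and 2 for Hoxa10), 5 held ACGTG (20.8%), against 16.6% of 32851 windows of all genes. GCGTG was in 7 Hox windows (29.2%) and in 28.2% of all. TTTATG was in 5 Hox windows (20.8%), those of Hoxa7, Hoxb8, Hoxd3, Hoxd4 and 1 of Hoxd11, and in 10.8% of all. A match describes the letters only, and in genes with ACGTG the log2 fold changes were -0.28 for Hoxa11, -0.14 for Hoxd1, -0.19 for Hoxd10, -0.09 for Hoxd11 and -0.29 for Hoxd13. Among all 37 Hox genes 27 values were negative, and a link between letters and change was not tested.

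Of the genes that work with or on Hox genes 1 passed the test. Hox proteins bind DNA together with homeodomain partners of the TALE class, the Pbx, Meis and Pknox proteins, and 0 of 9 measured members were called, with a list median of -0.11. Tgif1 (-0.39), which was called in 1 of 16 alternative settings, and Pbx3 (-0.31) had the lowest unadjusted p. Of 15 Polycomb genes, 1 fell and 0 rose, where 1.20% of all genes fell and 1.00% rose. It was Phc1, a subunit of the complex that compacts Hox chromatin, which averaged 4.09 ± 0.14 in hypoxia and 4.62 ± 0.05 in normoxia (SD, n = 4 each), a log2 fold change of -0.53 (limma adjusted p = 0.0376). The call was made in 3 of 16 alternative settings and was lost on leaving out any array other than hypoxia replicate 1. Ezh2, the catalytic subunit that marks silent Hox genes, had 3.29 in hypoxia and 3.36 in normoxia.

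Of 9 Trithorax and H3K27 demethylase genes 0 were called and the median was -0.23. Before adjustment 3 of them were lower, where 13.5% of all genes were, and Kmt2b (-0.36) and Wdr5 (-0.40) had the lowest p. Of 21 genes of the Cdx and retinoic acid pathways, which set Hox domains in the embryo, 0 were called and the median was -0.13, Rdh10 (-0.42) and Rxra (-0.36) having the lowest p. Of 50 other regional factors of mesenchyme 0 were called as well, with 9 lower and 3 higher before adjustment, where 13.5% of all genes were lower and 8.67% higher. The lowest p belonged to Msx2 (-0.82, adjusted p = 0.0562) and Nkx3-2 (-0.51, adjusted p = 0.069). Of 16 alternative settings, Msx2 was called lower in 3 and Nkx3-2 in 2.

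Noncoding genes lie between the Hox genes on both strands. Of the 19 listed, 6 had rows of their own and 0 of these were called. Before adjustment 3 were lower and 1 higher, where 13.5% of all genes were lower and 8.67% higher. Hoxaas3, which overlaps Hoxa3, Hoxa5 and Hoxa6, had 2.22, 2.52, 2.29 and 2.38 in hypoxia and 2.50, 2.78, 2.74 and 2.77 in normoxia, with an overlap between hypoxia replicate 2 and normoxia replicate 1. Hoxb5os, which overlaps Hoxb5 and Hoxb6, had 3.10, 3.30, 3.26 and 3.39 in hypoxia and 3.45, 3.54, 3.72 and 3.73 in normoxia, which did not overlap (-0.35, adjusted p = 0.119). The RefSeq table places 18 of the 37 measured Hox genes over another gene, 9 of them over another Hox gene, and the strand that the labelled target reports is not stated in the labels or methods, so a Hox gene and its overlapping partner cannot be told apart on shared stretches.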

How the data were processed

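RNA of 4 MEF_hypoxic and 4 MEF_normoxic samples was hybridised to exon arrays, the labels being followed where the methods give more replicates. The authors deposited a linear signal intensity for each of 641130 probe sets (0.794 to 8358), whose background correction, normalization and summarization are not stated in the labels or methods. The methods call the replicates biological. The array medians were 2.38 to 2.44 in log2 units, while the interquartile range was narrower in hypoxia (2.51 to 2.61) than in normoxia (2.77 to 2.90). Values were used as deposited, on the log2 scale with no pseudocount. Rows naming 1 gene (307991) were averaged per gene, and symbols were updated through RefSeq GRCm38.p6 (3985 updated, 63 kept as given). Groups were compared with limma 3.58.1 (lmFit, eBayes, two-sided, Benjamini-Hochberg over 21656 genes) in R 4.3.3, tested on simulated data. Array values were given for the largest changes and the most 5′ detected gene of each cluster, for Hoxa5, chosen after its values were seen, and for noncoding genes. Genes of other lists were named when called, otherwise by lowest p. Alternatives covered the row filter, quantile and cyclic loess normalization, gene summary, offset, variance prior, replicate block, detection percentile and each array left out. The members and lists were chosen with earlier results of these data known. No batch was given, and the number of arrays limits precision.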

Additional observations from a re-analysis of the deposited data

Results flagged for a closer look

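Each Hox gene was examined in each group of 4 arrays for a sample whose distance to its nearest neighbour took up most of the range of the group. Of 74 such groups 5 had a sample of this kind, and chance flags about 1 in 20 groups. Hoxb4 reached 4.14 on hypoxia replicate 4, where the next highest array had 3.35. Hoxd10 reached 4.31 on hypoxia replicate 2, with 3.75 next to it. Hoxc9 was lowest on hypoxia replicate 3, at 2.76, with 3.22 next. Among the normoxia arrays, Hoxb6 was lowest on replicate 2, at 3.665, with 3.993 next, and Hoxd11 was highest on replicate 4, at 3.99, with 3.62 next.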

How the results depend on the processing

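No Hox gene and no Hox row was called under any of the alternatives run, and the lowest adjusted p of a Hox gene was between 0.0518 (offset of 8) and 0.150 (without normoxia replicate 4). Hoxd9 stayed negative throughout (-0.66 to -0.22), as did Hoxa4 (-0.71 to -0.34), and Hoxa13 stayed positive (0.06 to 0.73). Over all genes 64 to 232 were called higher and 19 to 871 lower, against 217 and 259. The replicate numbers did not pair the arrays (correlations of deviations 0.06, -0.16, 0.06 and -0.05), and with the replicate block 0 Hox genes were called and 64 genes were higher and 19 lower.

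Several small values changed sign, none of them called. With rows at or above the table median, the values were Hoxc5 -0.092 and Hoxc13 0.0041, the Hoxa median was -0.19, and 3 Hox genes in hypoxia and 2 in normoxia stood above the receptor-gene level, since the filter also removes the dim receptor rows. At the 99th percentile 13 genes did in each group. Quantile normalization gave Hoxa6 0.046, Hoxb2 0.071, Hoxb5 0.061, Hoxb9 0.0059 and Hoxc6 0.049. Cyclic loess gave Hoxa2 0.056, Hoxa6 0.10, Hoxa7 0.0061, Hoxa9 0.012, Hoxb2 0.15, Hoxb3 0.033, Hoxb5 0.11, Hoxb7 0.032, Hoxb9 0.068, Hoxc6 0.10 and Hoxd11 0.043, with medians of 0.051 for Hoxb, 0.10 for Hoxc, -0.022 for Hoxd, 0.10 for paralog group 6, -0.0397 for group 10 and 0.032 for all Hox genes. The median over rows gave Hoxa10 -0.12, Hoxb1 0.27, Hoxb2 0.15, Hoxb5 0.064, Hoxb8 0.23, Hoxc4 -0.033, Hoxc5 -0.52, Hoxc6 0.22, Hoxd8 0.0496 and Hoxd10 0.025, with medians of -0.19 for Hoxa, 0.11 for Hoxb, -0.17 for Hoxc, -0.0051 for Hoxd, and 0.12 for paralog group 1, -0.21 for group 3, -0.033 for group 4, -0.52 for group 5, -0.29 for group 7, 0.0496 for group 8 and -0.38 for group 9. The brighter rows of each gene gave Hoxa10 -0.069, Hoxb2 0.064, Hoxb5 0.075, Hoxc5 -0.17, Hoxc6 0.23 and Hoxc8 0.0059, and a Hoxa median of -0.22. The offset gave Hoxb2 0.028, Hoxb5 0.0067 and Hoxc13 0.0022. The cause of these shifts was not tested.

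Leaving out each array in turn gave ranges of -0.16 to 0.13 for Hoxa2, -0.16 to 0.099 for Hoxa3, -0.40 to 0.13 for Hoxa5, -0.14 to 0.075 for Hoxa6, -0.21 to 0.0602 for Hoxa9, -0.098 to 0.19 for Hoxb13, -0.14 to 0.072 for Hoxb2, -0.037 to 0.26 for Hoxb4, -0.12 to 0.087 for Hoxb5, -0.19 to 0.0026 for Hoxb7, -0.15 to 0.053 for Hoxb9, -0.23 to 0.16 for Hoxc13, -0.0076 to 0.25 for Hoxc5, -0.14 to 0.0495 for Hoxc6, -0.13 to 0.00498 for Hoxd11, -0.022 to 0.48 for Hoxd12, -0.016 to 0.12 for the median of the Hoxc cluster, -0.087 to 0.099 for the median of paralog group 3 and -0.037 to 0.26 for the median of paralog group 4. Hoxa5 was positive only without hypoxia replicate 2, and Hoxb4 negative only without hypoxia replicate 4. At an unadjusted p under 0.05, with an array left out 2 to 4 Hox genes were lower and 0 to 2 higher, the 4 lower without hypoxia replicate 1. The median over rows gave 5 lower and the brighter rows 1 lower and 1 higher. The share of all genes was not counted in these settings, so these counts show no effect particular to Hox genes. In the main fit 13.5% of all genes were lower and 8.67% higher at that p. Over all genes the fewest calls with an array left out were those without normoxia replicate 3 (69 higher and 20 lower). The settings for the median of all Hox genes and for genes of other lists were chosen after seeing the data. Hox genes near the receptor-gene level cannot be called present or absent on these arrays.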
